A study of Mus musculus with 2 samples.

Results

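The genes described are those of the cytosolic ribosomal proteins of the mouse, chosen by name: every gene of the expression table named Rpl or Rps with a number and, where present, one of a few closing letters, together with Rplp0, Rplp1, Rplp2 and Rpsa, and without Rps27a. The rule found 83 members among 32285 genes. Of these, 30 encode proteins of the small (40S) subunit, 46 encode proteins of the large (60S) subunit, and 7 are paralogs (Rpl22l1, Rpl39l, Rpl3l, Rpl10l, Rpl7l1, Rpl36al and Rps27l). Live CD45+ cells, the leukocytes, had been sorted from the colon of female mice aged 9 months. The 5XFAD mice carry human transgenes with mutations of familial Alzheimer disease, driven by the neuronal Thy1 promoter, and the wild-type (WT) group consisted of littermates. Cells of 3 mice were pooled into 1 single-cell library per genotype, so every difference below compares 2 libraries: no test between genotypes was possible, and the 95% intervals cover counting error only, not differences between mice or preparations.

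The ribosome is built from ribosomal RNA and ribosomal proteins, most of them present in a single copy. The small subunit reads the mRNA and the large subunit joins amino acids and lets the chain out through its exit tunnel. Ribosomal protein mRNAs are among the most abundant of a lymphocyte. Most begin with a run of pyrimidines, the terminal oligopyrimidine (TOP) motif, through which mTOR signalling controls their translation as a group. Several ribosomal proteins are known for roles outside the ribosome: RPL5 and RPL11 bind and inhibit MDM2 and so stabilise p53, and loss of RPL22 impairs lymphocyte development. Heterozygous loss of Rps19 or any of several other members causes Diamond-Blackfan anaemia.

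Each library held 3443 cells, with 18604847 UMIs (unique transcript tags) in 5XFAD and 17939499 in WT and a median per cell of 5209 and 4938 UMIs. Cells with 2500 detected genes or more numbered 0 in 5XFAD and 106 in WT, so an upper limit on genes differs between the libraries, and 3 cell barcodes occurred in both. A UMI counts 1 transcript molecule caught at its 3′ end, so levels are not divided by transcript length. Ptprc, which encodes CD45, had 735.5 and 1102 counts per 1000000 UMIs (CPM) and was seen in 3144 and 3352 cells. Cells are described by the 17 deposited clusters, numbered 0 to 16. Clusters 0 to 5 carry B cell markers and are treated together as B cell-like (2364 cells in 5XFAD, 2538 in WT). By their markers cluster 8 is regulatory T cell-like and cluster 10 T cell-like, cluster 13 is gamma delta T cell-like, clusters 9 and 16 are ILC2-like and ILC3-like, and cluster 12 is NK or ILC1-like. The remaining clusters (6, 7, 11, 14 and 15) are given by number, though clusters 6 and 7 carry B cell markers too. Since the clusters were made from these cells and genes, levels across clusters are a description.

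The members made up 31.03% of all UMIs in 5XFAD (5772315) and 27.61% in WT (4953248). Over single cells the share ran from 2.896% to 55.39% in 5XFAD, with a median of 31.16% and quartiles of 26.98% and 35.03%. In WT it ran from 1.891% to 49.1%, with a median of 27.53% and quartiles of 23.85% and 30.98%. The library shift of a few points was thus smaller than the spread among cells of either library.

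The share differed between clusters, in a similar order in both libraries. It was highest in cluster 14, with 41.54% in 5XFAD and 36.52% in WT. This cluster of 60 and 61 cells is led by Dapl1, Lef1, Igfbp4 and Cd8b1, and 8 of 8 T cell markers were over 2-fold above the rest there. Clusters 4 and 3 of the B cell-like class followed, with 38.15% against 33.72% and 36.50% against 32.60%. The remaining B cell-like clusters lay lower: 31.94% against 27.72% in cluster 0, 32.16% against 28.06% in cluster 1, 32.03% against 28.36% in cluster 5 and 27.54% against 24.57% in cluster 2. Clusters of this single class thus differed by more than the libraries did in any cluster.

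Outside the B cell-like class of clusters 0 to 5 and cluster 14, clusters 7, 9, 6, 11 and 10 had intermediate shares. Clusters 7 and 6, which also carry B cell markers, had 30.80% against 26.44% and 29.40% against 27.32%. Cluster 9 (ILC2-like) had 29.97% against 26.92%, cluster 11 had 28.28% against 26.57% and cluster 10 (T cell-like) had 27.22% against 24.44%. The gamma delta T cell-like cluster 13 had 23.42% against 21.88% and the regulatory T cell-like cluster 8 had 22.36% against 20.34%. The lowest shares were those of the ILC3-like cluster 16 (21.61% against 18.00%), the NK or ILC1-like cluster 12 (20.11% against 18.41%) and cluster 15 (20.04% against 16.76%), which mixes macrophage, epithelial and stromal markers. The most and the least ribosomal cluster differed 2.18-fold in WT and 2.072-fold in 5XFAD. Over the 17 clusters the shares of the libraries correlated with Pearson's r of 0.9902 and Spearman's rho of 0.9779, a description, since both libraries were clustered together. Its rho with the median UMIs per cell of the cluster was -0.17 in WT and -0.02 in 5XFAD.

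**Figure D1:**
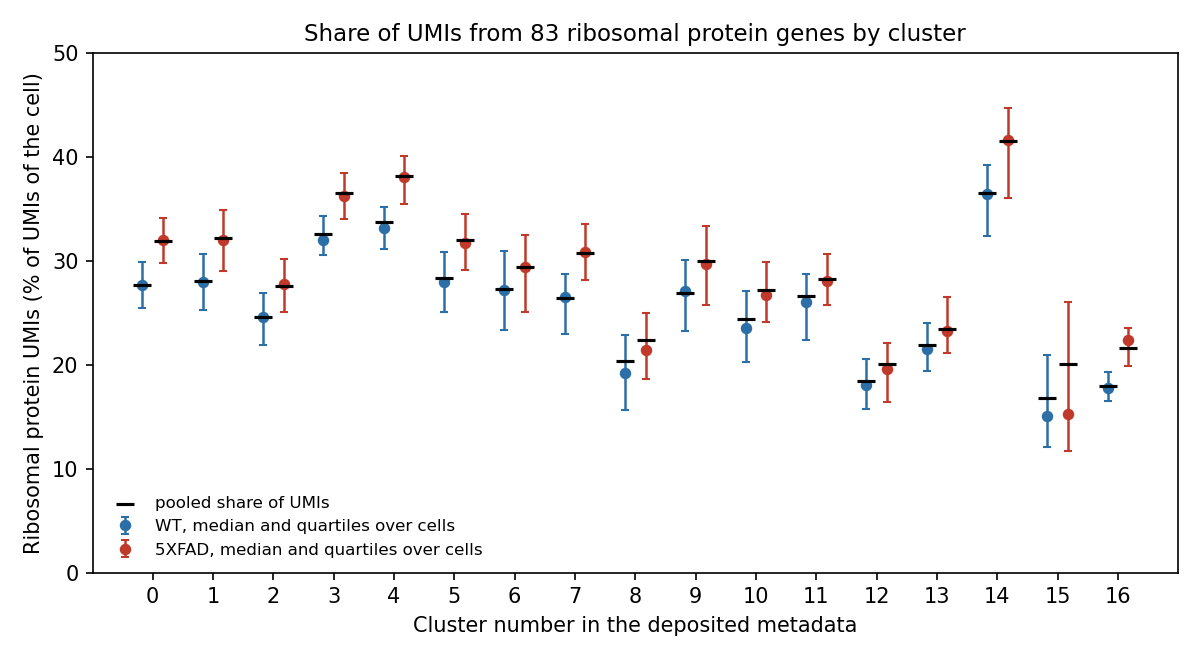
Share of UMIs from the 83 ribosomal protein genes (y axis, percent of the cell's UMIs) in each of the 17 clusters (x axis), as the median over cells with bars for the quartiles (blue WT, red 5XFAD) and the pooled share as a black dash. The pooled share of 5XFAD lies above that of WT in 17 of 17 clusters, and the ranges between the quartiles overlap except in clusters 4 and 16.

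In every cluster the pooled share was higher in 5XFAD, by 1.547 to 5.012 percentage points. On the log2 scale the ratio of 5XFAD over WT ran from 0.09 in cluster 11 to 0.26 in cluster 16. In cluster 16, of 25 and 17 cells, 94.12% of WT cells lay below the 5XFAD median. In cluster 15, where the pooled log2 ratio was also 0.26, only 51.35% did, and the medians over cells were 15.26% and 15.1%. In cluster 0, with 550 and 654 cells, 90.21% of WT cells lay below the 5XFAD median.

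In the B cell-like class the members took 32.73% of UMIs in 5XFAD and 28.72% in WT, a 1.139-fold difference (log2 ratio 0.19, counting interval 0.1863 to 0.1904). The sum hides unequal members. Of the 83, 80 had at least 50 UMIs over both libraries in this class and entered the counts (Rpl39l, Rpl3l and Rpl10l did not), and 58 of these were higher in 5XFAD and 22 lower. At least 1.2-fold higher were 24 members, or 30% of those tested, where 18.3% of all 9681 genes with that many UMIs were. At least 1.2-fold lower were 4 members, or 5%, where 37.6% of all genes were. At 1.5-fold, 8 members were higher (all genes: 4.62%) and 0 lower (all genes: 15%). The shares of all genes are not matched to the members in level or coding length. Ratios of genes near the minimum of 50 UMIs vary more by counting than those of most members. The median log2 ratio was 0.11 over the members and -0.12 over all genes. Scaling by the median of the genes' ratios in place of the class total moved all values up by 0.12 and gave 70 members higher and 10 lower. Scaling by the total without ribosomal protein and mitochondrial genes gave 68 and 12. The percent of mitochondrial UMIs was close in the libraries, 5.065% in 5XFAD and 5.17% in WT.

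Markers of other cells were low in the B cell-like class of both libraries. The 8 B cell markers summed to 4623 CPM in 5XFAD and 5840 in WT, with none at 0. The 8 T cell markers summed to 12.11 and 13.57 CPM and the 5 macrophage markers to 6.137 and 10.34. The 4 stromal or endothelial markers summed to 43.28 and 83.25 CPM, and the red blood cell markers Hbb-bs and Hba-a1 to 11.84 CPM in WT with both at 0 in 5XFAD. Their part in the differences was not tested.

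Rps28 stood out among the members. It encodes a small protein of the mRNA exit side of the 40S subunit and lies at chr17:33819027-33824562 (minus strand) of mm10. Its level in the B cell-like class was 5445 CPM in 5XFAD and 2336 in WT, a log2 ratio of 1.22 (1.201 to 1.241). It supplied 1.655% of all members' UMIs in 5XFAD and 0.815% in WT. No other member with a count over 50 reached a log2 ratio of 1 in this class.

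Other 40S members high in 5XFAD were Rps29, Rps27 and Rps21, which encode short proteins, the first pair of them with zinc fingers. Rps29 (chr12:69157722-69159186) had 11938 CPM in 5XFAD and 6594 in WT (log2 ratio 0.86, 0.8440 to 0.8685). Rps27 (chr3:90212522-90213651), the member with the most UMIs in 5XFAD, had 13572 and 7865 CPM (0.79, 0.7759 to 0.7985). Rps21 had 6986 and 4651 CPM. Rps26, a further protein of the mRNA exit side and a Diamond-Blackfan anaemia gene, had 3745 and 2796 CPM (0.42). In 5XFAD the UMIs were more concentrated in these genes: Rps27 and Rps29 alone made up 3.938% and 3.557% of the members' UMIs there, against 2.620% and 2.262% in WT. In WT the member with the most UMIs was Rps24, another Diamond-Blackfan anaemia gene, with 9037 CPM against 9993 in 5XFAD.

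On the 60S side the highest ratios were those of Rpl38, Rpl39 and Rpl35. Rpl38 (chr11:114668524-114672331), a gene known for its role in the translation of Hox mRNAs during development, had 5123 CPM in 5XFAD and 3026 in WT (log2 ratio 0.76, 0.7412 to 0.7778). Rpl39 (chrX:37082520-37085402), whose protein lines the exit tunnel, had 6470 and 3852 CPM (0.75, 0.7319 to 0.7644). Rpl35, at the tunnel's rim, had 4122 and 2685 CPM (0.62). Rpl37, Rpl36, Rpl37a, Rpl35a and Rpl41 followed, with log2 ratios of 0.57, 0.54, 0.53, 0.50 and 0.47. All of these encode short proteins, and Rpl41 the shortest.

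The members lower in 5XFAD by at least 1.2-fold were Rpl5, Rps15, Rpl23a and Rpl13a. Rpl5 (chr5:107900502-107909005), which binds 5S ribosomal RNA, had 1828 CPM in 5XFAD and 2565 in WT (log2 ratio -0.49, -0.5131 to -0.464). Rps15 (chr10:80292453-80294114) had 2309 and 3119 CPM (-0.43, -0.4561 to -0.4121). Rpl23a, at the tunnel's rim, had 1385 and 1838 CPM (-0.41), and Rpl13a, known for a role in silencing inflammatory mRNAs outside the ribosome, had 3566 and 4700 CPM (-0.40). Rps6, whose protein is phosphorylated by the S6 kinases below mTOR, had 2096 and 2498 CPM (-0.25), and Rps14 had 3646 and 4342 CPM (-0.25). These values kept their sign under both other scalings, where Rpl5 was at -0.36 and -0.40 and Rps6 at -0.13 and -0.17.

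Partners in one structure did not share a ratio. Rpl11, which joins Rpl5 in the 5S ribonucleoprotein, had 3243 CPM in 5XFAD and 2968 in WT, a log2 ratio of 0.13 where Rpl5 had -0.49. Of the 3 proteins of the P stalk, which recruits elongation factors, none passed 1.2-fold: Rplp0 was at 0.15, Rplp1 at 0.04 and Rplp2 at -0.02. Of the 8 genes of the exit tunnel rim, 3 (Rpl39, Rpl35 and Rpl22) were at least 1.2-fold higher and Rpl23a was lower by that much. Of the 6 genes of the mRNA exit side, Rps28 and Rps26 passed 1.2-fold upward, while Rpsa, also known as the laminin receptor, was at -0.01 and Rps14 at -0.25. Over the subunits, 6 of 30 genes of the 40S and 14 of 46 of the 60S were at least 1.2-fold higher, and 1 and 3 were at least that much lower (all genes: 18.3% and 37.6%), with medians of 0.06 and 0.12.

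Further groupings cut across the subunits. Of the 9 Diamond-Blackfan anaemia genes, Rps26 and Rpl35a were at least 1.2-fold higher and Rpl5 lower (all genes: 18.3% and 37.6%). The others lay inside that fold, with Rps19 at 0.06 (5788 against 5546 CPM). Of the 4 X-linked members, Rpl39 and Rpl36a passed 1.2-fold upward (all genes: 18.3%), and Rpl10 (2895 against 2881 CPM) and Rps4x (3851 against 3871) were near 0. The values of Rpsa, Rps4x and Rplp2 near 0 were negative when scaled by the class total and positive under both other scalings.

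**Figure D2:**
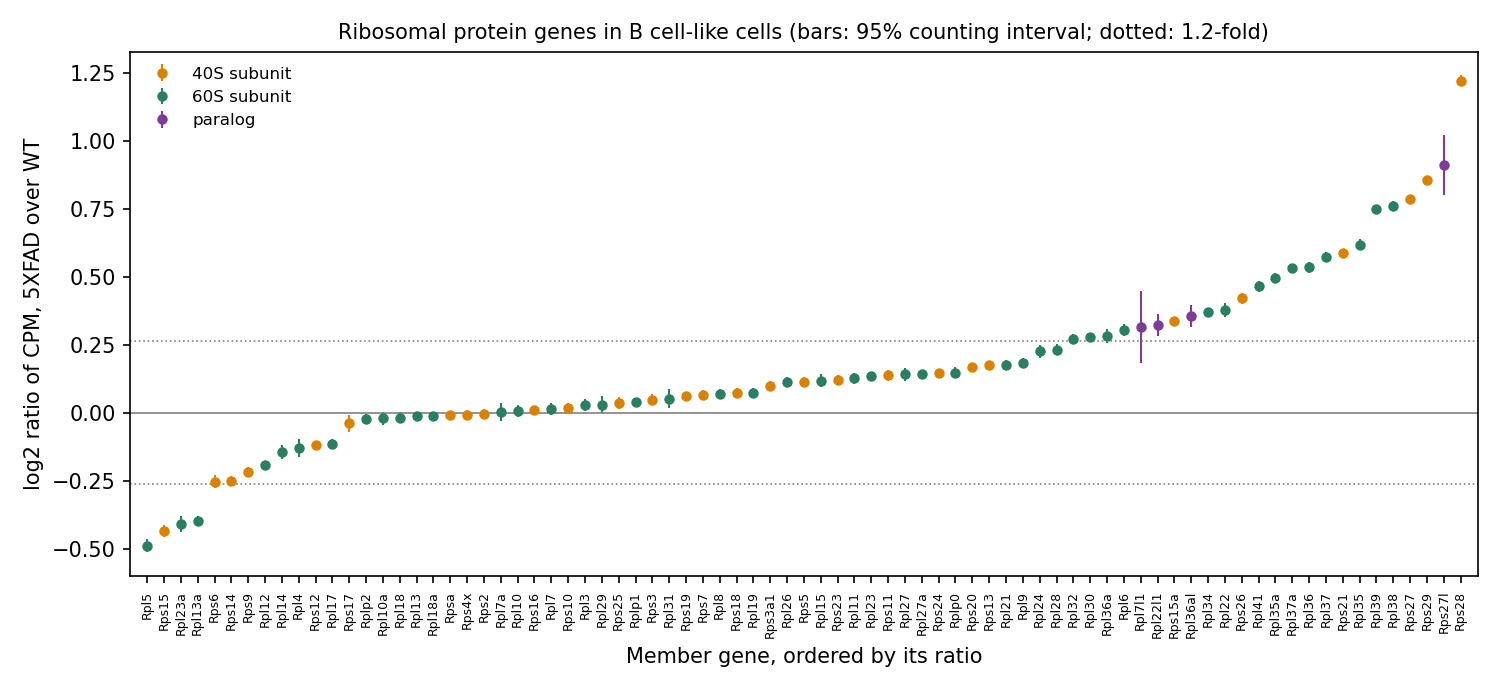
Log2 ratio of CPM of 5XFAD over WT in the B cell-like class (y axis) for 79 of the 80 members tested, ordered by ratio (x axis), coloured by subunit, with bars for the 95% counting interval and dotted lines at 1.2-fold. Rps28 at 1.22 is farthest from 0, and Rpl5 at -0.49 is the lowest.

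The members at the top of this order encode short proteins, a feature that the choice of members did not use. Over the 80 members the log2 ratio in the B cell-like class had a Spearman's rho of -0.65 with coding length (GENCODE M21 annotation) and -0.31 with transcript length. Lengths were set beside the ratios after the ratios had been seen. The 6 members with a coding length under 250 bases had a median log2 ratio of 0.75, and 6 of 6 were at least 1.2-fold higher. Of the 12 members from 250 to 350 bases, 10 were at least 1.2-fold higher, with a median of 0.46. The 21 members from 350 to 450 bases had a median of 0.14 and ran from -0.43 (Rps15) to 0.62 (Rpl35). From 450 to 600 bases the median of 18 members was 0.05, and the 20 members from 600 to 900 bases had one of -0.00. Thus length separated the members only in part, and Rplp2, of 345 bases, was near 0 while Rpl6, of 888 bases, had 2954 against 2393 CPM (0.30).

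All other genes showed a relation to coding length too. Over 8988 of them in the B cell-like class the rho was -0.43. Other genes with a coding length under 250 bases had a median log2 ratio of 0.36, and 63.03% of 119 were at least 1.2-fold higher. Other genes of 900 bases or more had a median of -0.22, and 11.12% of 6484 were at least 1.2-fold higher. Between these ranges the share of other genes past that fold upward was 46.46% from 250 to 350 bases and 45.4% from 350 to 450. It was 33.56% from 450 to 600 bases and 25.57% from 600 to 900. Of the members, 10 of 12, 6 of 21, 0 of 18 and 2 of 20 passed it in these ranges. The short members were above the other genes of their length (medians of 0.75 against 0.36 and 0.46 against 0.24 in the lowest ranges), while those of 350 to 900 bases were below them (0.14 against 0.22, 0.05 against 0.10 and -0.00 against 0.04). The 3 members of 900 bases or more were again above the other genes of that length (0.03 against -0.22). The members are short as a group, with a median coding length of 453 bases where the other genes had 1347. Whether length itself has a part in the ratios was not tested. As each genotype is 1 library, a difference tied to length that arose in library preparation and one between the genotypes cannot be told apart.

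**Figure D3:**
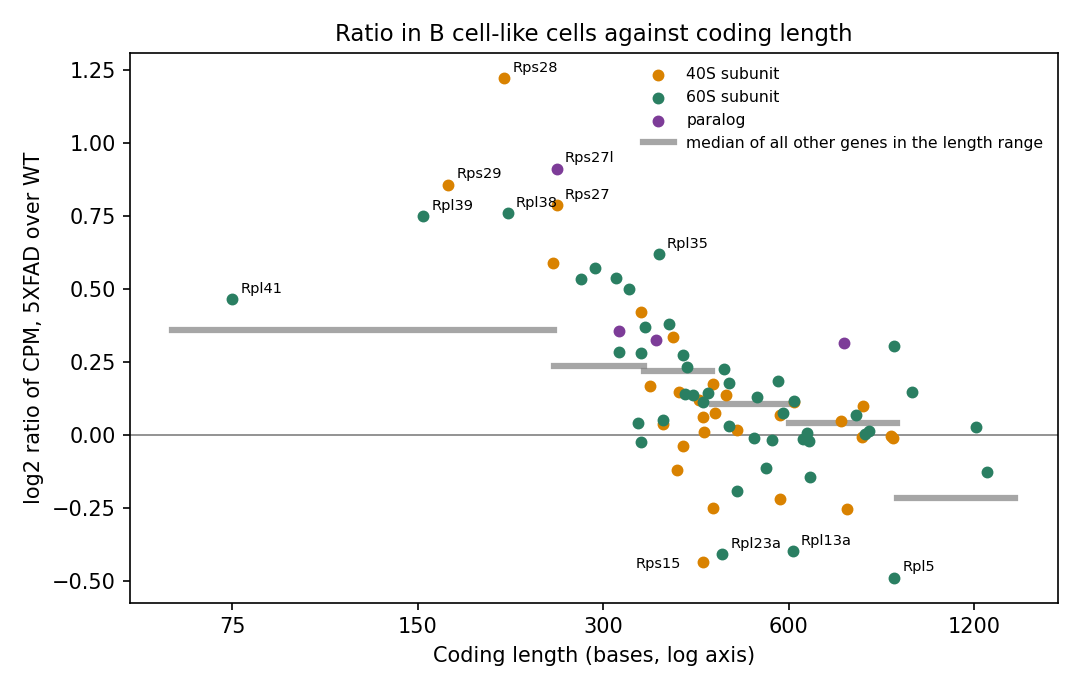
Log2 ratio of CPM of 5XFAD over WT in the B cell-like class (y axis) against coding length in bases (x axis, log scale) for 79 of the 80 members tested, coloured by subunit, with grey lines for the median of all other genes in each range of length. The 6 shortest members run from 0.47 to 1.22, and members of 600 to 900 bases lie around 0.

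Divided at a coding length of 400 bases, a limit chosen after the values were seen, the members gave different sums. The 29 shorter ones took 14.04% of UMIs in 5XFAD and 10.28% in WT of the B cell-like class (log2 ratio 0.45, 0.4464 to 0.453). The 54 longer ones took 18.69% and 18.45% (0.02, 0.01658 to 0.02182). Most of the higher share in 5XFAD thus lay in the short members. The shorter members were also higher in the other 11 classes, with log2 ratios from 0.35 in cluster 11 to 0.55 in cluster 16. The longer members ran there from -0.07 in cluster 11 to 0.12 in cluster 15.

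The ratios of single members recurred from cluster to cluster. Of the 76 members that are not paralogs, 28 were higher in 5XFAD in 17 of 17 clusters, 9 were lower in all (Rpl5, Rps15, Rpl23a, Rpl13a, Rps6, Rps14, Rps9, Rps12 and Rpl17) and 39 differed in sign. At least 1.2-fold higher in every cluster were 13: Rps21, Rps26, Rps27, Rps28, Rps29, Rpl35, Rpl35a, Rpl36, Rpl37, Rpl37a, Rpl38, Rpl39 and Rpl41. The clusters come from the same library pair, so they are not separate measurements of the genotype. The same counts were not made over all genes, so this recurrence cannot be called particular to the members. With scaling by the median of ratios, Rpl13a, Rps12 and Rpl17 were no longer lower in all clusters and Rps26 no longer 1.2-fold higher in all, and with the total without members Rps9, Rps12 and Rpl17 were no longer lower in all.

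Rps28 had a log2 ratio between 1.03 and 1.25 in each of the 17 clusters. In the NK or ILC1-like cluster 12, where its level was lowest, it had 2726 CPM in 5XFAD and 1287 in WT. In cluster 14, where it was highest, it had 7785 and 3324. Its level in 5XFAD was above the highest level in WT, 3324 CPM, in every cluster but cluster 12. Rps29 ran from 0.62 in the regulatory T cell-like cluster 8 (6034 against 3933 CPM) to 0.89 in cluster 16 (7827 against 4214). Rps27 ran from 0.61 in cluster 11 to 0.93 in cluster 16, Rpl38 from 0.67 to 0.88 and Rpl39 from 0.62 to 0.95.

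Of the lower members, 3 are given across clusters. Rpl5 was lowest in the ILC2-like cluster 9, with 1828 CPM in 5XFAD and 2962 in WT (log2 ratio -0.70, -0.7967 to -0.5967), and in the T cell-like cluster 10, with 1661 and 2582 (-0.64). Its smallest difference was in cluster 16, where the interval held 0 (-0.23, -0.5155 to 0.06561). Rps15 was lowest in cluster 7, with 1945 and 2944 CPM (-0.60, -0.6975 to -0.498), and closest to 0 in cluster 15 (-0.27). Rpl13a was at -0.54 in the regulatory T cell-like cluster 8 (2113 against 3075 CPM) and at -0.05 in cluster 15, where its interval held 0 (-0.2562 to 0.1566). Whether a ratio differs between clusters cannot be tested with 1 library per genotype.

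**Figure D4:**
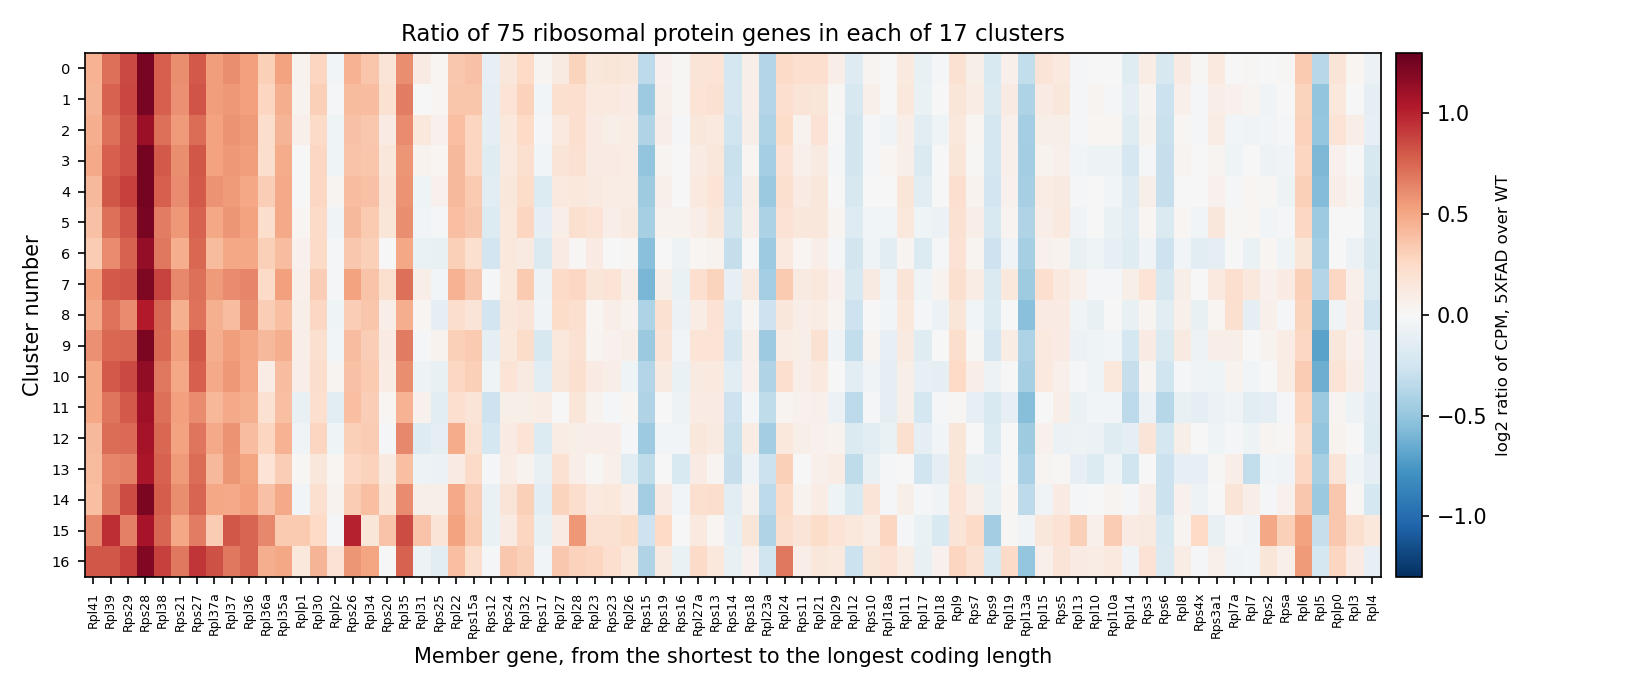
Log2 ratio of CPM of 5XFAD over WT (colour, red higher and blue lower in 5XFAD) of 75 of the 76 members that are not paralogs, in order of coding length from shortest to longest (x axis), in each of the 17 clusters (y axis). Of all 76 members, 28 are higher and 9 lower in all 17 clusters and 39 differ in sign (not counted for all genes). The deepest red columns lie to the left, among the short members.

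The number of members past 1.2-fold upward in the other well-filled clusters was highest in cluster 7. In cluster 7, which carries B cell markers and is led by Egr2, Egr1 and Egr3, 27 of 80 members were at least 1.2-fold higher (all genes: 23.4%) and 4 lower (all genes: 36.1%), with a median of 0.14. In cluster 6, which carries B cell and plasma cell markers, 18 of 80 were higher (all genes: 26.5%) and 7 lower (all genes: 28.6%), with a median of 0.02. The regulatory T cell-like cluster 8 had 19 of 79 higher (all genes: 24.5%) and 5 lower (all genes: 29.1%). The ILC2-like cluster 9 had 20 of 79 higher (all genes: 23.7%) and 5 lower (all genes: 28.2%), and the T cell-like cluster 10 had 18 of 79 higher (all genes: 21.9%) and 5 lower (all genes: 31.6%). In clusters 6, 8, 9 and 10 the shares of members past the fold upward, 22.5%, 24.05%, 25.32% and 22.78%, were near those of all genes, whereas fewer members than genes at large lay past the fold downward. Ratios of genes with few UMIs vary more by counting, and no share of all genes matched to the members in level was made.

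Clusters 11 to 16 hold fewer cells. At least 1.2-fold higher in cluster 11 were 17 of 80 members (all genes: 25.1%) and 10 were lower (26.2%), the highest number downward of the 12 classes. In the NK or ILC1-like cluster 12 they were 19 of 79 (all genes: 22.2%) and 5 (29.8%), and in the gamma delta T cell-like cluster 13 they were 18 of 78 (26.3%) and 8 (23.7%). Cluster 14 had 22 of 78 members higher (all genes: 21.4%) and 5 lower (32.5%), and the mixed cluster 15 had 31 of 79 higher (30.9%) and 4 lower (38.1%). The ILC3-like cluster 16 had 28 of 78 higher (all genes: 33.9%) and 3 lower (24.7%).

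Across clusters the levels of the members varied together. In clusters 0 to 13, 78 members had at least 50 UMIs per cluster in WT, and their level varied by a median of 0.89 on the log2 scale in WT and 0.91 in 5XFAD. The highest level was in cluster 4 for 60 of the 78 in WT and 63 in 5XFAD, and the lowest in the NK or ILC1-like cluster 12 for 62 and 64. The correlation of a member with the sum of the others over these 14 clusters had a median r of 0.9485 in WT and 0.9571 in 5XFAD. Members share the cells and the class totals, so these values only describe.

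The widest range in WT was that of Rps19, which had 6496 CPM in cluster 3 and 1972 in cluster 12 (5XFAD: 6677 and 1918). Rpl35 followed, with 3280 CPM in cluster 4 and 1061 in cluster 12 (5XFAD: 4909 and 1637). Rps20 ran from 7500 to 2552 CPM and Rpl36a from 2338 to 956.2 between the same clusters in WT. These genes followed the common order with a larger swing.

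Rplp1, a P stalk protein, did not follow it. It was highest in the ILC2-like cluster 9, with 11451 CPM in WT and 12176 in 5XFAD, where the other clusters from 0 to 13 had 4226 to 6299 CPM in WT and 4105 to 6222 in 5XFAD. Its correlation with the other members was 0.30 in WT and 0.27 in 5XFAD, the lowest of the 78. Its stalk partners did not show this peak: in WT Rplp2 had 3999 CPM in cluster 9 and 4256 in cluster 4, and Rplp0 had 3013 and 3651. Cluster 14 was the other place with a high Rplp1, with 9998 CPM in WT and 9784 in 5XFAD. Among clusters 0 to 13, Rps14 was also highest in cluster 9, with 5086 CPM in WT and 4369 in 5XFAD, with a correlation of 0.58 and 0.49.

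**Figure D5:**
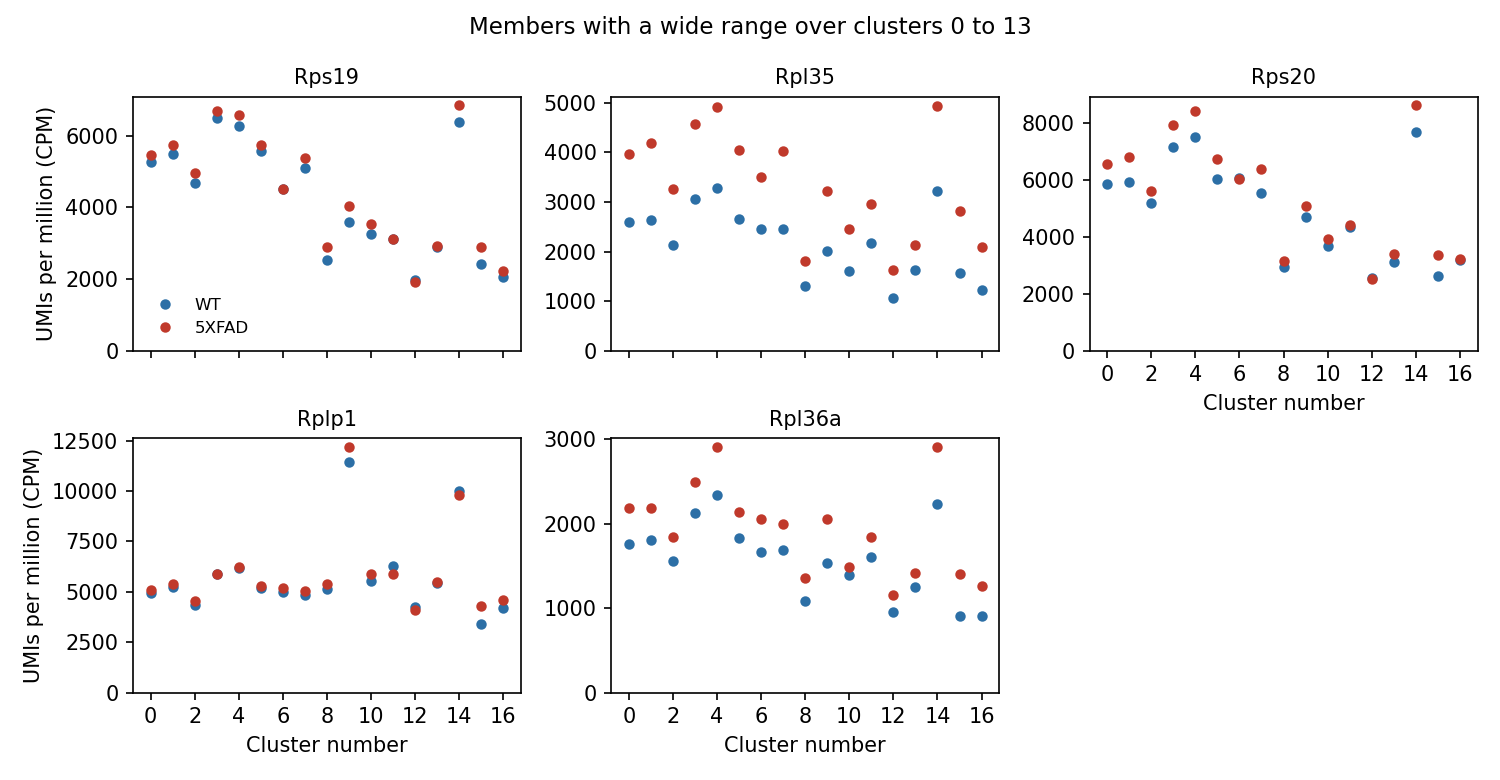
Level (y axis, CPM) of 5 members with a wide range over clusters 0 to 13 in WT, in each of the 17 clusters (x axis) in WT (blue) and 5XFAD (red). Of the 5, Rplp1 alone peaks in cluster 9, with 11451 in WT and 12176 in 5XFAD, and Rpl35 is higher in 5XFAD in every cluster.

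Outside the members, the genes whose level over clusters 0 to 13 of both libraries (28 points) was most like the members' sum, among 506 with enough UMIs, were Rps27a (r = 0.9432), Naca (0.8927), Fau (0.8906), Eif3f (0.8255) and Nsa2 (0.8017). Rps27a and Fau encode ribosomal proteins made as fusions with ubiquitin or a ubiquitin-like protein. Naca encodes a subunit of the complex that meets nascent chains at the exit tunnel, Eif3f a subunit of an initiation factor and Nsa2 a factor of 60S assembly. Tpt1 and Pabpc1, whose mRNAs also begin with the TOP motif, had r of 0.11 and -0.73, while Eef1b2, Eif3k, Eif3e, Eef1g and Hnrnpa1 had 0.78, 0.72, 0.72, 0.68 and 0.67. The elongation factor gene Eef2 had 0.01.

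The paralogs differed in level by orders of magnitude. Rpl22l1, the paralog of Rpl22, had 16307 UMIs in 5XFAD and 12339 in WT over all cells. There it made up 27.93% (27.57 to 28.3, Clopper-Pearson) and 28.05% (27.63 to 28.48) of the UMIs of the pair. Rpl22 itself had 2349 and 1808 CPM in the B cell-like class (log2 ratio 0.38) and Rpl22l1 892.1 and 712.7 (0.32), so that both were higher there. Over all cells the balance of the pair was close in the libraries. That balance varied with the cluster, from 21.55% Rpl22l1 in cluster 6 to 33.91% in cluster 11 in WT, and from 22.14% to 35.92% in the same clusters in 5XFAD. Over all cells Rpl36al made up 27.76% and 27.02% of its pair with Rpl36a. In WT this share ran from 22.99% in cluster 4 to 38.00% in cluster 12.

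Rps27l, a known p53 target, had 155.5 CPM in 5XFAD and 82.7 in WT in the B cell-like class (log2 ratio 0.91, 0.8019 to 1.021). Over all cells its log2 ratio was 0.76. Its share of the pair with Rps27 over all cells was 1.181% in 5XFAD and 1.179% in WT, because Rps27 was higher too. In the B cell-like class the ratio of Rps27l (0.91) was above that of Rps27 (0.79). Rpl7l1 had 1385 and 1114 UMIs over all cells, 2.905% and 2.414% of its pair with Rpl7. Rpl39l, known from testis, had 11 UMIs in 6 cells of 5XFAD and 30 in 22 cells of WT. Rpl3l, known from muscle, had 1 and 0 UMIs, and Rpl10l, known from testis, 0 and 1. For the last pair no fold is given, since a count of 0 allows up to 3 counts.

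Reads of some members may be divided with near-identical copies that the table lists apart. Rps27rt had 2621 UMIs in 5XFAD and 1693 in WT beside 227310 and 129796 of Rps27. Rpl9-ps6 had 1043 and 771, Rpl10-ps3 624 and 669 and Rpl36a-ps1 73 and 94. Rpl9-ps1 and Rpl36-ps4 had 0. How the submitters' counting divided such reads is not given in the sources used here, so the levels of Rps27, Rpl9, Rpl10, Rpl36a and Rpl36 are uncertain by about these counts or more.

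The starts of the members' transcripts are shown because the TOP motif is the feature that binds this family together, and because members that were high and low in 5XFAD can be compared there. RefSeq promoter windows (GRCm38.p6) of 250 bases before to 50 after the start were found for 64 of the 83 members by symbol, 76 windows in all. Printed are 10 bases before to 20 from the start on, 5′ to 3′ on the gene's strand, with runs of at least 5 pyrimidines in capitals. Examples of members high in 5XFAD are Rps28 (chr17:33824543-33824572, minus strand), Rps27l (chr9:66946076-66946105, plus), Rps27 (chr3:90213629-90213658, minus), Rpl38 (chr11:114668570-114668599, plus), Rpl39 (chrX:37085203-37085232, minus) and Rpl35 (chr2:39005112-39005141, minus).
Rps28: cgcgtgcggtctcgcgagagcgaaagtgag
Rps27l: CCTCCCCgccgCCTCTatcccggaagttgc
Rps27: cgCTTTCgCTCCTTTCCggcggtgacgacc
Rpl38: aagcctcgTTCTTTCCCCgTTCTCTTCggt
Rpl39: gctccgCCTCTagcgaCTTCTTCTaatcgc
Rpl35: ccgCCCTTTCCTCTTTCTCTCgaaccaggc

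Examples of members with a log2 ratio below 0, of which Rps6 and Rps9 lay inside 1.2-fold, are Rpl5 (chr5:107900518-107900547, plus), Rps15 (chr10:80292421-80292450, plus), Rpl13a (chr7:45128726-45128755, minus), Rps6 (chr4:86857348-86857377, minus) and Rps9 (chr7:3704031-3704060, plus).
Rpl5: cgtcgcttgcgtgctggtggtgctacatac
Rps15: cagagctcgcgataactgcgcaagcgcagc
Rpl13a: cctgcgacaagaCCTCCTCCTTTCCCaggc
Rps6: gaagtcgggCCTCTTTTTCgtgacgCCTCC
Rps9: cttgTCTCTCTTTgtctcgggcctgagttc

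Both sets hold genes with a long pyrimidine run at the annotated start and genes without one. The run is 18 bases in Rpl35 and 14 in Rpl13a, and neither Rps28 nor Rpl5 has 5 pyrimidines in a row in the window shown. A run of at least 8 pyrimidines within 5 bases of the start was present in 31.58% of the members' windows (24 of 76) and in 9.723% of all 32851 windows. Among members at least 1.2-fold higher in the B cell-like class it was in 9 of 26 windows, and among the other members in 15 of 50. Over 61 members the length of the run had a Spearman's rho of -0.08 with the log2 ratio. These values depend on the annotated start: the RefSeq and GENCODE starts lie 0 bases apart in Rps28, 26 in Rpl5, 493 in Rpl35 and 3553 in Rps24. A start placed a few bases off can move or hide a run. A run missing here therefore does not show that a member lacks the TOP motif.

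Motifs were searched on both strands of the 300-base windows. CCGGAAG, a core bound by ETS factors such as GABP, was in 35.53% of the members' windows and 8.858% of all. AAGATGGC, a core bound by YY1, was in 10.53% and 2.749%, GGGCGG, the GC box bound by SP1, in 60.53% and 35.66%, and TATAAA in 9.211% and 13.62%. Between members at least 1.2-fold higher and the others, CCGGAAG was in 11 of 26 and 16 of 50 windows and GGGCGG in 17 and 29. AAGATGGC was in 7 and 1, over 5 genes and 1 gene, and TATAAA in 5 and 2. These matches describe letters in the windows and not binding.

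Other genes of the translation machinery in the B cell-like class did not all behave as the members did. The shares of all genes given beside these lists, here and below, are not matched to them in level or coding length. Of the ribosomal proteins made as fusions, Fau had 8850 CPM in 5XFAD and 7808 in WT (log2 ratio 0.18) and Rps27a 4229 and 3956 (0.10). Rack1, a scaffold on the 40S subunit, had 2015 and 2336 CPM (-0.21). These 3 genes lay inside 1.2-fold.

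Of 7 genes grouped here as elongation factors, 2 were at least 1.2-fold higher and 2 lower (all genes: 18.3% and 37.6%), with a median of 0.02. Eef1e1, an elongation factor by name only, had 66.38 against 44.43 CPM and Eif5a 268.7 against 212.7 CPM. Eef2, which moves the ribosome along the mRNA, had 700.2 against 981.2 CPM (-0.49), and Eef1g 521.7 against 676 (-0.37). Of 12 other mRNAs known to carry the TOP motif, only Hnrnpa1 passed 1.2-fold upward (542.5 against 441.1 CPM), none passed it downward, and the median was 0.00. Eif4b was the lowest, at 100.7 against 120.7 CPM, and Btf3 the next highest, at 707 against 605.3.

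Of the 8 host genes of small nucleolar RNAs that start with the TOP motif, 4 were at least 1.2-fold higher and 1 lower (all genes: 18.3% and 37.6%), with a median of 0.28. Snhg6 (65.25 against 32.67 CPM) and Snhg15 (83.42 against 44.51) were the highest, and Snhg5 (21.24 against 28.09) and Snhg12 (176.8 against 199.6) the lowest. Of 29 initiation factor genes 7 were higher and 3 lower (all genes: 18.3% and 37.6%), with a median of 0.08. Eif2s2 (596.4 against 383.4 CPM) and Eif1 (3445 against 2400) were the highest, and Eif3a (291.2 against 410.3) and Eif4a2 (222.6 against 303.7) the lowest.

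Among 15 genes of mTOR and the regulators of TOP translation, 1 was at least 1.2-fold higher (Rheb, an activator of mTOR, with 163.8 against 121.1 CPM) and 3 lower, fewer in both directions than the shares of all genes (18.3% and 37.6%) would give. These were Tsc1 (16.47 against 38.35 CPM) and Tsc2 (7.025 against 10.57), which together restrain Rheb, and Rptor (11.71 against 20.12), the scaffold of mTOR complex 1. The counting interval of Tsc2 (-0.9962 to -0.1899) reached inside 1.2-fold. The TOP-binding Larp1 was at 88.91 and 87.2 CPM. The promoter factor genes Gabpa, Gabpb1 and Yy1 lay inside 1.2-fold and Sp1 was lower (49.18 against 77.89 CPM).

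Mitochondrial ribosomal proteins, which build the separate ribosome of that organelle, were often past the fold upward. Of 78 tested in the B cell-like class, 39 were at least 1.2-fold higher and 1 lower (all genes: 18.3% and 37.6%), with a median of 0.26, where the cytosolic members had 0.11. Neither all genes nor the cytosolic members were matched to this list in coding length. Among genes other than the cytosolic members, the share past the fold upward fell from 63.03% under 250 bases to 11.12% from 900 bases. Whether length has a part in the values of this list was not tested. The highest were Mrpl55 (30.44 against 17.6 CPM) and Mrpl33 (120.9 against 71.42), and the lowest were Mrps35 (15.18 against 18.86) and Mrpl45 (24.23 against 28.72). In the other main classes the medians of this list were 0.24 in cluster 6, 0.33 in cluster 7, 0.26 in cluster 8, 0.23 in cluster 9 and 0.19 in cluster 10.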

How the data were processed

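Droplet single-cell RNA-seq (10x Chromium 3′ v3.1) was made from pooled colon CD45+ cells, 1 library per genotype, and Cell Ranger 6.0.1 with mm10 was used per the submitters' processing notes. For filters and clustering the sources used here give no settings. The authors deposited a table of 32285 genes by 6886 cells in natural log values, the log of 1 plus the counts scaled to 10000 UMIs per cell. A second deposited natural log table (SCT, 14128 genes) served as an alternative. The deposited metadata give each cell's UMI count, its percent of mitochondrial UMIs, its library (AD, taken as 5XFAD because it is the other label beside WT) and its cluster.

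Whole counts were recovered with the deposited UMI count of each cell: 100% of 11758401 values were whole within 1e-06, and the totals of 6886 of 6886 cells were equal. UMIs were summed per class and library and scaled to CPM by the class total. Ratios carry exact conditional binomial 95% intervals and shares Clopper-Pearson ones. Genes needed 50 UMIs over both libraries in a class to enter counts, and past 1.2-fold counts as higher or lower. Doublets were not called, and no per-cell filter was added. The members and gene lists were chosen with earlier results of these data known. Named are a fixed list of members, the members with the 6 highest and 6 lowest ratios in the B cell-like class and the 3 highest and 3 lowest of 5 other classes, the 6 with the widest range over clusters, the 5 most similar other genes and the 2 highest and 2 lowest of each list of related genes. Rps9, Rps24, Rpl6 and the remaining names were picked after their values were seen, and a few genes covered by this rule are not reported here. Tested on simulated counts, the intervals contained the ratio put in for 95.53% of 9681 genes of the B cell-like class. These counts were drawn with counting error only, as the intervals assume. The simulation thus checks the computation and not differences between cells, mice or libraries. Coordinates of genes are those of GENCODE M21, and coordinates of the printed start sequences are those of the RefSeq windows (GRCm38.p6). Python 3.11.15, numpy 2.4.6, pandas 2.3.3 and scipy 1.17.1 were used.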

Additional observations from a re-analysis of the deposited data

How the results depend on the processing

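The summed log2 ratio of the members in the B cell-like class, 0.19 as reported, was 0.3124 with median-of-ratios scaling, 0.2761 with the total without members, 0.1925 with cells weighted equally and 0.1803 with clusters 0 to 5 weighted equally. The median over members, 0.11 as reported, was 0.2366 and 0.2003 with the first pair of scalings. With 1.5-fold in place of 1.2-fold, 8 members in place of 24 were higher and 0 in place of 4 lower. In alternatives chosen after seeing the data, the summed ratio was 0.4497 over members with a coding length under 400 bases, 0.0192 over those from 400 and 0.132 without Rps27, Rps28 and Rps29. Leaving out cells with 2500 genes or more, leaving out cluster 5, thinning cells to 3000 UMIs (60 and 124 cells left out) and the SCT table moved these values less, and the share of all members was higher in 5XFAD in 17 of 17 clusters under the 3 alternatives run for it (mean over cells, thinned cells, total without mitochondrial genes). Over members of 400 bases or more the summed ratio turned below 0 in clusters 6 (-0.06119), 8 (-0.009911), 9 (-0.003335) and 10 (-0.006557), where the intervals of 8, 9 and 10 held 0, and in clusters 11 (-0.071), 12 (-0.02946) and 13 (-0.06628). In 5 other classes all 30 planned summed ratios stayed positive (0.08884 to 0.3123), as did all 40 medians. Of these 30 summed ratios, 20 moved outside the counting interval of the reported value. Of 112 values of named members, 59 stayed inside the counting interval of the reported value and 53 moved outside it. None changed from at least 1.2-fold in one direction to the other. The scalings could not give such a change, since they move all members of the class up alike by 0.124 or 0.08775.

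No paired analysis was possible because each genotype is 1 library, and no replicate could be left out. Depth limits Rpl39l, Rpl3l and Rpl10l, and clusters 15 and 16, of 17 to 37 cells per library, carry the widest intervals.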
